A study of Mus musculus with 36 samples.

Results

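Nephron progenitor (NP) cells sorted from E12.5 mouse kidneys were compared with NP cells sorted from E11.5 kidneys, using the 4 libraries of each day, 8 of the 36 libraries of the series. All 8 came from embryos of CD1 mice, with no mutation or treatment named in the labels, and the kidneys of every embryo of a pregnant mouse were pooled into a library. The cells were gated as negative for CD31 and for EpCAM and RET, and then as high for ITGA8 and low for PDGFRA. Messenger RNA was sequenced from stranded libraries, and levels are given as normalised CPM, the scaled CPM values that the authors deposited. Stromal progenitor (SP) cells, sorted from kidneys of the same days as high for PDGFRA, served as the comparison group, again with 4 libraries a day.

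Nephron progenitors form a cap of mesenchyme around each tip of the branching ureteric bud, where Six2 keeps them undifferentiated. Wnt signals from the bud induce some of them to become renal vesicles, epithelial balls that switch on *Wnt4*, *Fgf8*, *Pax8* and *Lhx1* and go on to form nephrons. Embryonic kidneys of the earlier day are at the start of ureteric branching, and the first nephron precursors appear over the following day. In bulk libraries a change in the number of cells that express a gene and a change in its RNA per cell cannot be told apart.

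The E11.5 libraries held between 24.0 and 30.3 M (mega-reads) counted on genes and the E12.5 libraries between 31.1 and 43.7 M, so depth went with the day. The level taken as the limit of detection was 3 reads. It corresponded to 0.101 to 0.128 normalised CPM at E11.5 and to 0.0679 to 0.0923 at E12.5. *Six2* lay between 422 and 771 and *Itga8*, the integrin used to sort the cells, between 86.0 and 163, while *Pdgfra* was at most 7.26 against 204 to 622 in the SP libraries of these days. RNA of the proteins used for negative gating was low but not absent: *Pecam1*, which encodes CD31, was at 5.25 or less, and *Epcam* and *Ret* were highest in library 1 of E12.5, at 16.9 and 8.93 against 6.38 to 11.4 and 0.973 to 5.71 in the other 7 libraries. *Pdgfra* was highest in that library too, at 7.26 against 1.34 to 3.04. *Foxd1*, a transcription factor of stromal progenitors, was between 44.3 and 92.9 in NP libraries and between 265 and 758 in SP libraries. None of 14 macrophage markers reached the minimum for testing, and their summed level was at most 3.08.

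Within E12.5, libraries 1 and 2 stood apart from libraries 3 and 4. In library 1, 859 genes lay more than 1 on the log2 scale from the mean of the other 3 libraries of the day, and in library 2 there were 686 such genes, against 108 and 100 in libraries 3 and 4 and between 10 and 134 in the E11.5 libraries. Library 1 carried high heat shock RNA, with *Hspa1a* at 194 against 1.10 to 1.18 in the other 3, and more ureteric bud RNA, the 16 markers of that list summing to 132 against 28.8 to 40.6. All 16 of those markers were above 0 in each of the 8 NP libraries. Library 2 was low in long transcripts: transcripts of at least 8 kb had a median departure of -0.36 from the mean of the other 3 libraries, and those under 2 kb a median departure of 0.27. Results are therefore given with all 8 libraries and without library 1 of E12.5, and values in library 2 are given where they bear on a result.

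Of 13414 genes tested, 850 (6.34%) differed between the days with limma at an adjusted p under 0.05, and 368 of them (2.74%) rose while 482 (3.59%) fell. Among the genes that changed by more than 1 on the log2 scale, 56 rose and 153 fell. Without library 1 of E12.5 the calls numbered 2289 (17.1%), with 1218 higher (9.08%) and 1071 lower (7.98%), and all of the 850 genes were among them with the same direction. Every E12.5 library lay above every E11.5 library for 1131 genes (8.43%) and below for 1144 (8.53%). The groups did not overlap for 362 of the 368 genes called higher and for 474 of the 482 called lower. The day accounted for 32.6% of the variance of the log2 values, and for 47.3% without library 1. Over all genes the median log2 fold change was 0.02. Calls of single genes often needed all libraries: of 88 called genes named here, 30 stayed called without library 2 of E11.5, 32 without library 3 of E11.5, 45 and 37 without libraries 3 and 4 of E12.5, and 58 and 61 without libraries 1 and 4 of E11.5. *Lhx1*, *Pax8*, *Fgf8*, *Cited1*, *Hoxa11*, *Lin28a* and *Cdh1* lost the call when either library 2 or library 3 of E11.5 was left out, while *Emx2*, *Ccnd1*, *Stat3*, *Bcl3*, *Icam1*, *Stard4*, *Dlk1*, *Dio3* and *Hoxb1* kept it with each library left out.

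Some genes of nephron induction rose. *Emx2*, a homeobox factor of the nascent nephron and ureteric bud, was at 0.234, 0.403, 0.128 and 1.13 at E11.5 and at 5.20, 5.05, 4.60 and 6.35 at E12.5. The lowest E12.5 library was thus well above the highest of E11.5, with a log2 fold change of 2.13 ± 0.20 (SE, adjusted p = 0.0013). Some of its E11.5 values lay near the limit of detection, where the pseudocount understates the change. *Ccnd1*, which encodes cyclin D1 and is a marker of induced cells, was at 121, 136, 129 and 167 and then at 339, 400, 313 and 331. Its groups did not overlap either, and its log2 fold change was 1.32 ± 0.12 (adjusted p = 0.0013).

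*Lhx1*, the LIM homeobox gene that marks the renal vesicle, had the largest log2 fold change among the 17 induction genes tested, at 3.14 ± 0.59 (adjusted p = 0.019). It was at 0.117, 2.12, 1.71 and 10.9 at E11.5 and at 20.9, 25.9, 27.0 and 39.9 at E12.5, so that library 4 of E11.5 stood closest to the later day. With edgeR on the recovered reads its adjusted p was 0.0693. *Pax8*, a paired-box factor of the induced mesenchyme, was at 13.4, 29.6, 21.0 and 60.7 and then at 63.4, 114.8, 131 and 120. Library 4 was again the highest at E11.5, just under library 1 of E12.5, and the log2 fold change was 1.91 ± 0.41 (adjusted p = 0.028). *Fgf8*, the growth factor that keeps renal vesicle cells alive, rose by 1.30 ± 0.23, and *Jag1*, a Notch ligand of the vesicle, rose by 0.96 ± 0.23, a call lost with edgeR (adjusted p = 0.0526).

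Not every gene of induction was called. *Wnt4*, the signal that drives the mesenchyme to become epithelial, was at 104, 143, 135 and 176 at E11.5 and at 117, 130, 157 and 171 at E12.5, so the groups overlapped over almost their whole range (adjusted p = 0.90). *Lef1*, a partner of beta-catenin in Wnt responses, fell from 38.9 ± 5.40 to 21.4 ± 4.37 (SD, n = 4), with a log2 fold change of -0.84 ± 0.16. Of the 17 induction genes tested, of 18 listed, 7 rose and 1 fell, and 9 rose and 1 fell without library 1. Among all genes 2.74% rose, and 9.08% without library 1. The median log2 fold change of the list was 0.84. Of the markers of differentiated nephrons, none of the 5 podocyte and tubule genes tested was called, with or without library 1.

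**Figure D1:**
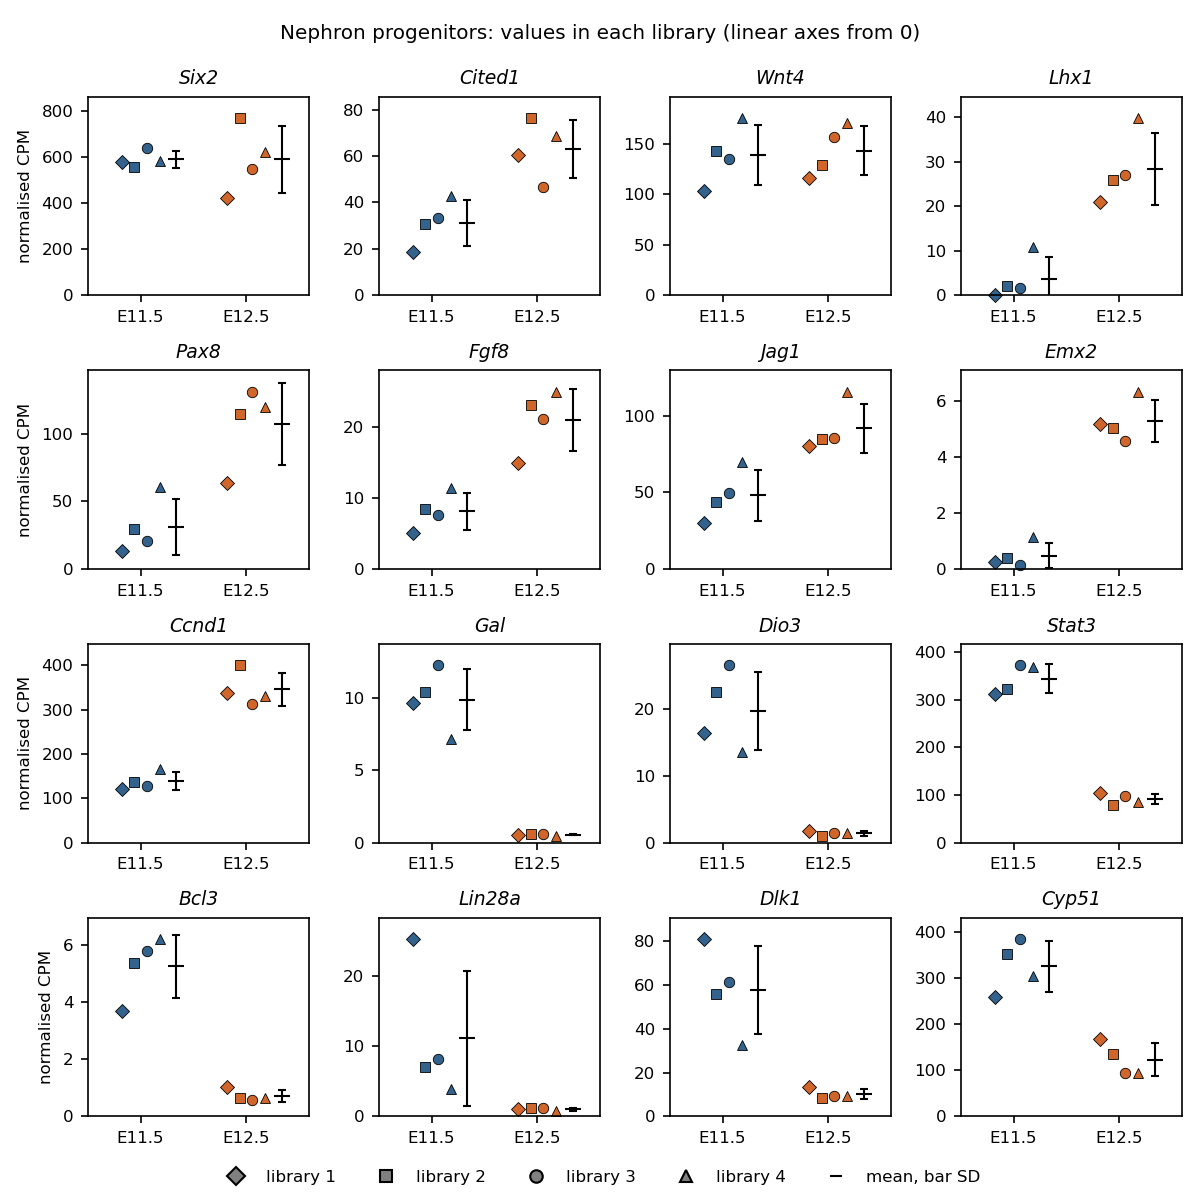
Normalised CPM (y axis, linear from 0) of 16 genes in the 4 E11.5 and 4 E12.5 NP libraries (x axis); each symbol is 1 library, and the bar beside each group is the mean with its SD, drawn no lower than 0. *Emx2*, *Ccnd1*, *Gal*, *Dio3* and *Stat3* separate the days without overlap, while *Six2* and *Wnt4* overlap.

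Some genes of the undifferentiated progenitor also rose. *Six2* was at 579, 557, 641 and 584 at E11.5 and at 422, 771, 550 and 621 at E12.5, with library 1 the lowest and library 2 the highest of all 8 (log2 fold change -0.03 ± 0.16, adjusted p = 0.94). *Cited1*, a transcriptional regulator of the least differentiated cap cells, rose from 18.4, 30.8, 33.2 and 42.6 to 60.6, 76.5, 46.8 and 68.5. Its groups did not overlap, and the log2 fold change was 1.03 ± 0.24 (adjusted p = 0.039). Over the list, 5 of 23 genes tested rose and 1 fell, and 12 rose and 2 fell without library 1, while the share of all genes that rose went from 2.74% to 9.08%.

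*Hoxa11*, a Hox gene required for kidney formation, rose by 0.54 ± 0.11 on the log2 scale, *Uncx* by 0.41 ± 0.09, *Dpf3* by 0.72 ± 0.16 and *Fgf9*, which maintains the progenitors, by 0.81 ± 0.19. With edgeR *Fgf9* was not called (adjusted p = 0.0539). *Eya1*, a coactivator needed for the kidney to form, was at 247, 234, 223 and 271 at E11.5 and at 165, 474, 463 and 481 at E12.5. Its library 1 was the lowest and the other 3 E12.5 libraries the highest of all, and the gene was not called with all 8 libraries (adjusted p = 0.30) but was without library 1 (log2 fold change 0.96, adjusted p = 0.00089). *Wt1* and *Pax2* had the same order of libraries. In *Sall1* and *Itga8* library 1 lay within the E11.5 range and the other 3 above it. These 4 genes were likewise not called with all 8 libraries and were called without library 1, which took their adjusted p-values from between 0.063 and 0.28 to between 0.0073 and 0.027.

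The smallest adjusted p-values belonged to genes that were lower at E12.5. *Gal*, which encodes the neuropeptide galanin, was at 9.66, 10.4, 12.3 and 7.18 at E11.5 and at 0.523, 0.589, 0.566 and 0.489 at E12.5, a log2 fold change of -2.80 ± 0.15 (adjusted p = 0.00013). *Stat3*, the transcription factor activated by cytokines of the interleukin-6 family, was at 313, 323, 373 and 369 and fell to 104, 79.7, 98.3 and 85.3, a change of -1.90 ± 0.11 (adjusted p = 0.00014). *Dio3* (chr12:110279068-110281097, GRCm38), the deiodinase that inactivates thyroid hormone, was at 16.4, 22.5, 26.6 and 13.6 and fell to 1.79, 0.956, 1.49 and 1.39 (-3.08 ± 0.21, adjusted p = 0.00032). For all of these genes the later libraries lay close together, far under the lowest E11.5 library. *Crispld2*, *Dgkk*, *Bcl3*, *Spsb1* and *Srxn1*, the last of which encodes the antioxidant enzyme sulfiredoxin, made up the rest of the 8 lower genes with the lowest p-values, with log2 fold changes between -2.19 and -1.82. *Enpep*, *Ano1*, *Slc45a3*, *Selo* and *Proser2* stood with *Ccnd1* and *Emx2* among the 8 that rose, with log2 fold changes between 0.90 and 1.62. *Enpep* encodes glutamyl aminopeptidase and *Ano1* a chloride channel.

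*Stat3* did not fall alone. In a list of cytokine receptors, Stat3 targets and NF-kB genes, written after the fall of *Stat3* and *Bcl3* had been seen, 9 of 22 genes tested fell and 1 rose, and 13 fell and 2 rose without library 1, beside 3.59% of all genes that fell and 7.98% without that library. The mean log2 level of the list in library 1 was 4.37, above the 4.12 to 4.30 of E11.5, and was 3.50 to 3.74 in the other E12.5 libraries. Since the list was drawn up with these values in view, its count is a description. *Il6st*, the receptor chain shared by the interleukin-6 family, fell by 0.57 ± 0.09, *Lifr* by 0.68 ± 0.12, and *Osmr*, the oncostatin M receptor, by 1.02 ± 0.13. *Icam1*, an adhesion molecule induced by NF-kB and cytokines, was at 16.8, 11.7, 18.3 and 14.6 and fell to 2.74, 2.57, 2.15 and 4.79. *Nfkb2* and *Relb*, which together form the dimer of the alternative NF-kB pathway, fell by 1.25 ± 0.23 and 1.36 ± 0.28, *Relb* losing its call with edgeR (adjusted p = 0.0546). In library 1 they were at 74.9 and 58.1, against 35.4 to 39.5 and 21.2 to 24.2 in the other E12.5 libraries. *Bcl3*, a nuclear partner of NF-kB, fell by 1.85 ± 0.16. *Socs3*, the feedback inhibitor induced by Stat3, went the other way, from 14.7 ± 3.27 to 29.1 ± 6.06 (SD, n = 4), a log2 fold change of 0.94 ± 0.19.

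The promoters of *Nfkb2* and *Icam1* are shown because they carry the letters of the binding motifs of these factors. The windows are the 250 bases before the RefSeq start on GRCm38.p6, read 5′ to 3′ on the strand of the gene, and the capitals mark the match. In *Nfkb2* (chr19:46305680-46305929, plus strand, 1 of 3 windows of the gene) they mark the NF-kB motif, GGGA followed by any base and then TTTCC, and in *Icam1* (chr9:21015690-21015939, plus strand) the Stat motif TTCNNNGAA.
Nfkb2: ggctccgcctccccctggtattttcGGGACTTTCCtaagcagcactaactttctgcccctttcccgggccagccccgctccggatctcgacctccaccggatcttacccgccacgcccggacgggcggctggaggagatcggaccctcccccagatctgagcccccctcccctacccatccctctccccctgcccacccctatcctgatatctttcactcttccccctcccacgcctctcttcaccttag
Icam1: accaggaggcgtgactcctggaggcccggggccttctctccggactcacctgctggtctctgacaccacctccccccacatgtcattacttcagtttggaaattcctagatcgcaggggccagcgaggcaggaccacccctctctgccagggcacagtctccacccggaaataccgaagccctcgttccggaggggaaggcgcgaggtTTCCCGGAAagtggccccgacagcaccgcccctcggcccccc
On either strand, 3 of the 19 genes of the list with a window (*Nfkb2*, *Nfkbia* and *Cxcl1*) held the NF-kB motif, against 0.414% of the windows of 27025 genes. The Stat motif was in 4 of the 19 (*Socs3*, *Icam1*, *Irf1* and *Nfkb2*), against 8.13% of all genes.

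Genes of cholesterol synthesis were lower at E12.5. Of 22 genes tested, 11 fell and none rose, against 3.59% lower among all genes, and 14 fell without library 1, against 7.98%. The median log2 fold change was -0.83, and every E12.5 library was below every E11.5 library for 11 of the 22, against 8.53% of all genes. *Cyp51*, the lanosterol demethylase, was at 259, 352, 384 and 304 and fell to 168, 135, 93.8 and 94.8 (-1.42 ± 0.20, adjusted p = 0.0065). *Stard4*, which carries cholesterol between membranes, was at 49.3, 60.7, 66.9 and 51.6 and fell to 21.7, 22.2, 18.3 and 24.6 (-1.35 ± 0.13, adjusted p = 0.0018). The groups were apart for these genes, with library 1 the lowest of the E11.5 libraries.

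Other steps of the pathway moved with them. *Sc5d* fell by 1.14 ± 0.15, *Hmgcs1* by 1.52 ± 0.32, *Fdft1* by 0.97 ± 0.20 and *Idi1* by 1.23 ± 0.26. With edgeR *Hmgcs1* was not called (adjusted p = 0.0521). Library 1 of E12.5 was within the E11.5 range of *Hmgcs1*, at 260 against 258.5 to 506.5, while the other E12.5 libraries were at 95.2 to 111. That library was also at the E11.5 level in a gene that responds to sterols. *Insig1*, the sterol sensor of the endoplasmic reticulum, was at 163, 181, 216 and 144 at E11.5 and at 167, 39.2, 32.4 and 29.0 at E12.5. It was not called with all 8 libraries (adjusted p = 0.059) and was without library 1, where its log2 fold change was -2.35.

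Promoter windows of *Hmgcs1*, *Cyp51* and *Sc5d* are shown because 15 of the 22 genes had a window and all 15 held the CCAAT box, against 37.5% of the windows of 27025 genes. Capitals mark CCAAT, or ATTGG where the box lies on the other strand, and in *Hmgcs1* also the sterol element TCACCCCA. The windows are chr13:119690101-119690350 (plus strand), chr5:4104698-4104947 (minus strand) and chr9:42264301-42264550 (minus strand) on GRCm38.p6, each read 5′ to 3′ on the strand of the gene.
Hmgcs1: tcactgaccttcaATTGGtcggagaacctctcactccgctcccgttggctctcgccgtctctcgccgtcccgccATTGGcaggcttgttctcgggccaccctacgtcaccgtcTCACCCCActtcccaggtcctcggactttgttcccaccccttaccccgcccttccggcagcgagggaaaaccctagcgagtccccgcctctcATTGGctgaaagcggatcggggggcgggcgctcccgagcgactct
Cyp51: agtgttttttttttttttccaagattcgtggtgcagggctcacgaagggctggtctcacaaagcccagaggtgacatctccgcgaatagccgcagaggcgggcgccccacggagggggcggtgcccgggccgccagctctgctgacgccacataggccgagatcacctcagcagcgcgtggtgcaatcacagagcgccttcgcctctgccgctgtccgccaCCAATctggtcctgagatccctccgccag
Sc5d: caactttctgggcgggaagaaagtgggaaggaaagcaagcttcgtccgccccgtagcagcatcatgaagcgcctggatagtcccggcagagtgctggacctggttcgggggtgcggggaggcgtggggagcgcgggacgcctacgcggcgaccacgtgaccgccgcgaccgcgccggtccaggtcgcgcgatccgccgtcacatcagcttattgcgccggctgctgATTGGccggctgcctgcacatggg
The sterol element was in 1 of the 15 windows, against 1.54% of all genes. A match is a description of the letters and not a measured binding site.

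The calls of stress genes depended on library 1. *Hspa1a*, the inducible Hsp70, was at 37.1, 13.3, 28.3 and 19.04 at E11.5 and at 194, 1.10, 1.18 and 1.18 at E12.5, so that 1 library was the highest and 3 the lowest of all 8. *Hspa1b* followed it, with 53.9, 23.5, 42.6 and 29.9 and then 289, 1.59, 1.92 and 2.57. Neither was called with all libraries (adjusted p = 0.43 and 0.41), and without library 1 their log2 fold changes were -3.46 and -3.61 (adjusted p = 0.00049 and 0.00029). Of the 14 heat shock genes tested, 4 fell with all 8 libraries and 10 without library 1, against 3.59% and 7.98% of all genes. *Dnaja1*, *Hsp90aa1*, *Hspb8* and *Bag3* were the 4 called, *Bag3* not with edgeR (adjusted p = 0.0855), and *Hsp90aa1*, which encodes a cytosolic Hsp90, fell from 1420 ± 143 to 798 ± 222 (SD, n = 4). Library 1 of the E12.5 SP cells was likewise high, with *Hspa1a* at 512 against 6.65 to 7.32 in the other 3 SP libraries of that day.

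Immediate early genes, which cells switch on within minutes of a stimulus, were also split by library 1. With all libraries 1 of 20 was called, *Socs3*, which rose, against 2.74% of all genes that rose. Without library 1 there were 10 that fell, against 7.98% of all genes. *Klf6* was at 103, 90.7, 99.1 and 91.0 at E11.5 and at 109, 27.2, 26.8 and 26.1 at E12.5. The mean log2 level of the list ranged from 5.04 to 5.46 at E11.5, was 6.22 in library 1 of E12.5 and ranged from 4.36 to 4.85 in the others.

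In genes of the integrated stress response, a programme that Atf4 drives when amino acids are short or proteins misfold, library 1 departed downwards. This list was also written after values had been seen, and none of its 22 genes was called with all libraries, while 7 rose and 2 fell without library 1, against 9.08% and 7.98% of all genes. *Trib3* was at 63.1, 91.8, 74.4 and 99.9 at E11.5 and at 4.0, 113, 92.2 and 74.9 at E12.5. *Slc7a11*, the cystine transporter, was at 2.69, 3.63, 3.03 and 4.14 and then at 0.308, 18.6, 10.4 and 15.8, the other 3 libraries lying above all of E11.5. *Atf4* itself was at 710 ± 15.5 and 586 ± 59.2 (SD, n = 4, adjusted p = 0.11).

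**Figure D2:**
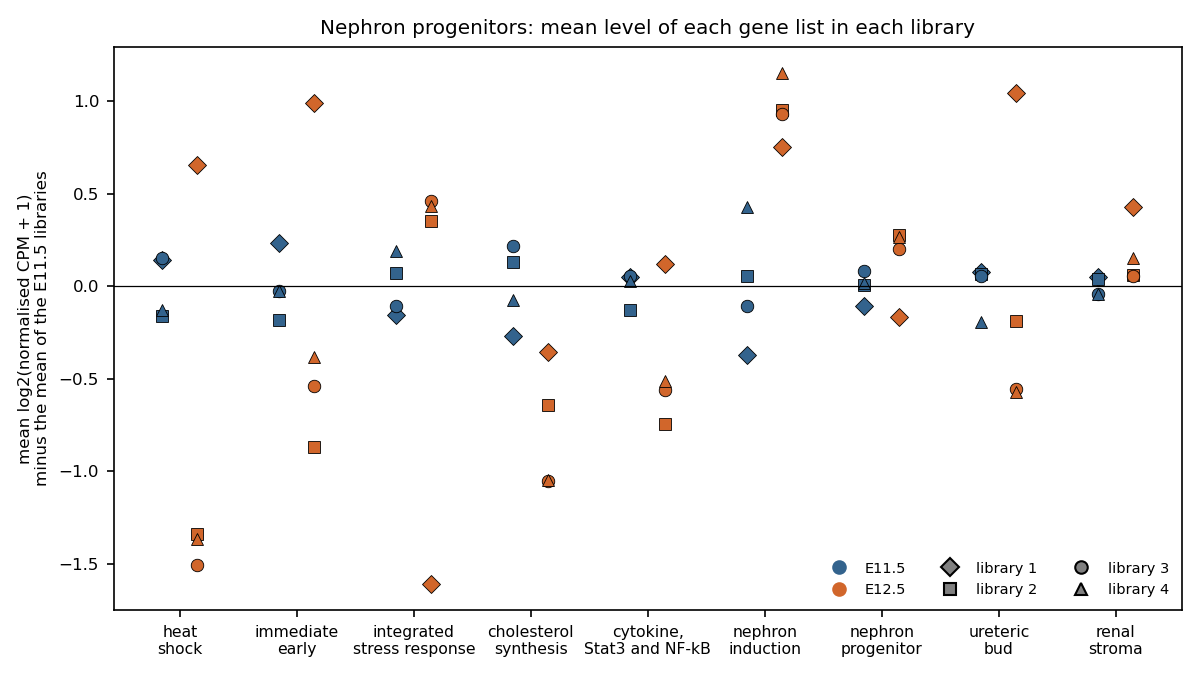
Levels of 9 gene lists (x axis) in each of the 8 NP libraries, as the mean of log2(normalised CPM + 1) over the genes of a list minus the mean of the 4 E11.5 libraries (y axis); colours mark the day and symbols the library. For heat shock and immediate early genes, library 1 of E12.5 lies above all E11.5 libraries and the other 3 E12.5 libraries lie below them, while for cholesterol synthesis all 4 E12.5 libraries lie below E11.5.

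Some genes of developmental timing fell. *Lin28a*, the RNA-binding protein that holds back let-7 microRNAs in early embryonic cells, was at 25.3, 7.08, 8.19 and 3.86 at E11.5 and fell to 1.05, 1.18, 1.18 and 0.746, a log2 fold change of -2.28 ± 0.42 (adjusted p = 0.018). Library 1 of E11.5 was the highest and library 4 the lowest of its day, and all E12.5 libraries were lower still. *Igf2bp1*, a let-7 target that binds messenger RNA, fell from 671 ± 66.8 to 403 ± 75.3, and *Myc* from 235 ± 33.4 to 148 ± 8.22 (SD, n = 4). *Lin28b* was at 24.99 ± 8.44 and 17.3 ± 3.49 (adjusted p = 0.23), and *Hmga2*, another let-7 target, at 732 ± 13.8 and 580 ± 49.1 (adjusted p = 0.050). Of 14 genes tested 3 fell and none rose, against 3.59% lower among all genes, and 6 fell without library 1, against 7.98%. *Hmga2* was among these 6 (adjusted p = 0.047). With all libraries the median log2 fold change was -0.47.

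Among imprinted genes, 6 of 24 tested fell and none rose, and 7 fell without library 1, against 3.59% and 7.98% of all genes. *Dlk1* (chr12:109452823-109463336, GRCm38), a paternally expressed inhibitor of differentiation, was at 80.9, 55.7, 61.3 and 32.4 and fell to 13.2, 8.21, 9.51 and 9.47, a log2 fold change of -2.35 ± 0.26 (adjusted p = 0.0022). *Dio3*, described above, and the noncoding *Rian* and *Mirg* belong to the same imprinted domain on chromosome 12, and *Rian* and *Mirg* fell by 1.67 ± 0.30 and 1.63 ± 0.37, *Mirg* losing its call with edgeR (adjusted p = 0.0648). *Meg3*, the noncoding RNA after which the domain is also named, was at 18.3, 7.69, 5.88 and 6.02 and then at 14.1, 0.0981, 4.71 and 2.42, so the groups overlapped and library 2 of E12.5 was close to the limit of detection (adjusted p = 0.34). Elsewhere *Peg10* fell by 1.14 ± 0.13, *Phlda2*, which limits placental growth, by 2.08 ± 0.23, and *Magel2* by 1.81 ± 0.34. The growth regulator *Igf2* and its neighbour *H19* did not pass the test, *H19* at 2940 ± 220 and 3220 ± 182 and *Igf2* at 2250 ± 183 and 1850 ± 160 (SD, n = 4, adjusted p = 0.42 and 0.13).

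Hox genes moved in both directions. Of 35 tested, 3 rose and 3 fell, where 2.74% of all genes rose and 3.59% fell. Without library 1 there were 4 that rose and 5 that fell, against 9.08% and 7.98% of all genes, and without library 2 there were 6 and 5, against 4.22% and 5.43%. *Hoxb1*, the most 3′ gene of its cluster, was at 39.8, 29.2, 26.0 and 15.1 and fell to 4.40, 6.60, 7.02 and 5.30 (log2 fold change -2.003 ± 0.26, adjusted p = 0.0046). *Hoxd1* and *Hoxd13* fell by 1.22 ± 0.22 and 0.92 ± 0.20. *Hoxb7* and *Hoxb8*, from the middle of the HoxB cluster, rose by 0.83 ± 0.15 and 0.63 ± 0.11, and with *Hoxa11* they made up the 3 that rose.

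Signalling lists gave small counts, to be read beside the 2.74% of all genes that rose and the 3.59% that fell, or 9.08% and 7.98% without library 1. Among Bmp genes, 3 of 14 rose and 2 fell, or 5 and 2 without library 1. The target *Id3* was at 192, 154, 162 and 232 and rose to 507, 303, 373 and 398, *Id1* and the ligand *Bmp4* also rose, and *Smad9* and the antagonist *Grem1* fell, the latter from 23.7 ± 10.2 to 5.81 ± 2.73 (SD, n = 4). In the Wnt list 1 of 13 rose, *Bmp4* again, and 3 fell, *Lef1*, *Tcf7* and the feedback inhibitor *Nkd1*, with log2 fold changes of -0.84, -0.63 and -0.60, and 2 rose and 4 fell without library 1. Of 15 Fgf targets 2 rose, the feedback inhibitor *Spry2* by 0.78 ± 0.14 and *Etv1* by 0.98 ± 0.20, and 3 rose without library 1. Of 15 Notch genes 3 rose, *Jag1*, *Nrarp* and *Dtx4*, the last from 9.31 ± 1.55 to 19.6 ± 2.48, and 3 rose and 1 fell without library 1. In the retinoic acid list 2 of 12 rose, among them the receptor *Rarb*, and 3 without library 1. None of 11 hedgehog genes was called with all libraries, and 2 rose without library 1.

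Matrix genes moved in both directions as well. Of 31 collagen and laminin genes tested, a list that also holds other matrix proteins, 4 rose and 2 fell, against 2.74% and 3.59% of all genes. Without library 1 there were 7 that rose, against 9.08% of all genes, and without library 2 there were 8, against 4.22%. *Lama4*, a laminin chain of vessel basement membranes, was at 14.8, 36.6, 27.4 and 75.6 at E11.5 and rose to 90.9, 85.9, 115.4 and 124, and *Nid2* rose by 0.96 ± 0.22, *Col4a5* by 0.86 ± 0.21 and *Col18a1* by 0.61 ± 0.14. With edgeR *Lama4* was not called (adjusted p = 0.0749). *Fn1*, which encodes fibronectin, fell by 0.87 ± 0.19, and *Npnt*, the ligand of the ITGA8 integrin, fell from 60.0 ± 9.57 to 32.2 ± 3.46 (SD, n = 4).

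Few genes of proliferation were called with all libraries. None of 22 DNA replication genes was called, and of 22 mitosis genes 1 rose, *Cdk1*, by 0.72 ± 0.14, against 2.74% of all genes. Without library 1, 1 replication gene rose and 2 fell and 2 mitosis genes rose, against 9.08% higher and 7.98% lower among all genes. Without library 2, 3 replication genes fell and 4 mitosis genes rose, against 5.43% lower and 4.22% higher. With libraries 3 and 4 as the only ones of E12.5, 9 replication genes fell and 1 rose and 5 mitosis genes rose, against 11.3% lower and 12.7% higher. *Mki67* was at 256, 84.7, 72.9 and 115.1 at E11.5 and at 455, 6.45, 352 and 263 at E12.5, library 2 lying far below the rest. The long transcripts *Cenpe* and *Cenpf* were also low in library 2, at 8.12 and 12.6 against at least 141 and 98.5 in the other E12.5 libraries. Without library 2 their log2 fold changes were 0.84 and 0.64 in place of -0.17 and -0.09. Of 14 Cdk inhibitor and p53 target genes 2 fell, *Eda2r* and *Plk2*, against 3.59% of all genes, and without library 1 there were 4 that fell and 1 that rose, against 7.98% and 9.08%. In the hypoxia list 2 of 17 rose, *Slc2a1*, the main glucose transporter of embryonic cells, and *Ankrd37*, and *Pfkfb4* fell, while 5 rose and 1 fell without library 1, against 9.08% and 7.98% of all genes.

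Few of the ureteric bud, endothelial and stromal markers tested were called with all libraries. Of 12 ureteric bud markers tested 1 rose, *Cdh1*, from 1.21, 2.01, 1.49 and 2.12 to 12.6, 5.44, 3.64 and 5.58, with library 1 the highest, where 2.74% of all genes rose. Without library 1, *Cdh1* rose and 3 fell, *Ret*, *Krt8* and *Krt18*, against 7.98% of all genes, and the median log2 fold change of the list went from -0.22 to -0.65. *Cdh1* encodes E-cadherin, which epithelial nephron precursors also make. The 16 listed markers summed to between 51.2 and 73.4 at E11.5, and the part of bud cells in the result of *Cdh1* was not tested. Of 11 endothelial markers 2 rose, *Cldn5* and *Ramp2*, and 2 rose without library 1, against 2.74% and 9.08% of all genes. With all libraries 7 of the 11 had negative log2 fold changes. The median of the list was -0.19, and -0.03 without library 1. The list summed to between 48.6 and 85.0 at E11.5 and between 63.8 and 97.1 at E12.5. *Ramp2* alone was at 31.2 ± 2.56 and 43.7 ± 2.85 (SD, n = 4). None of 15 stromal markers was called with all libraries, and 4 rose without library 1, against 9.08% of all genes, among them *Tcf21*, which cap cells also express, and *Pdgfrb*.

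**Figure D3:**
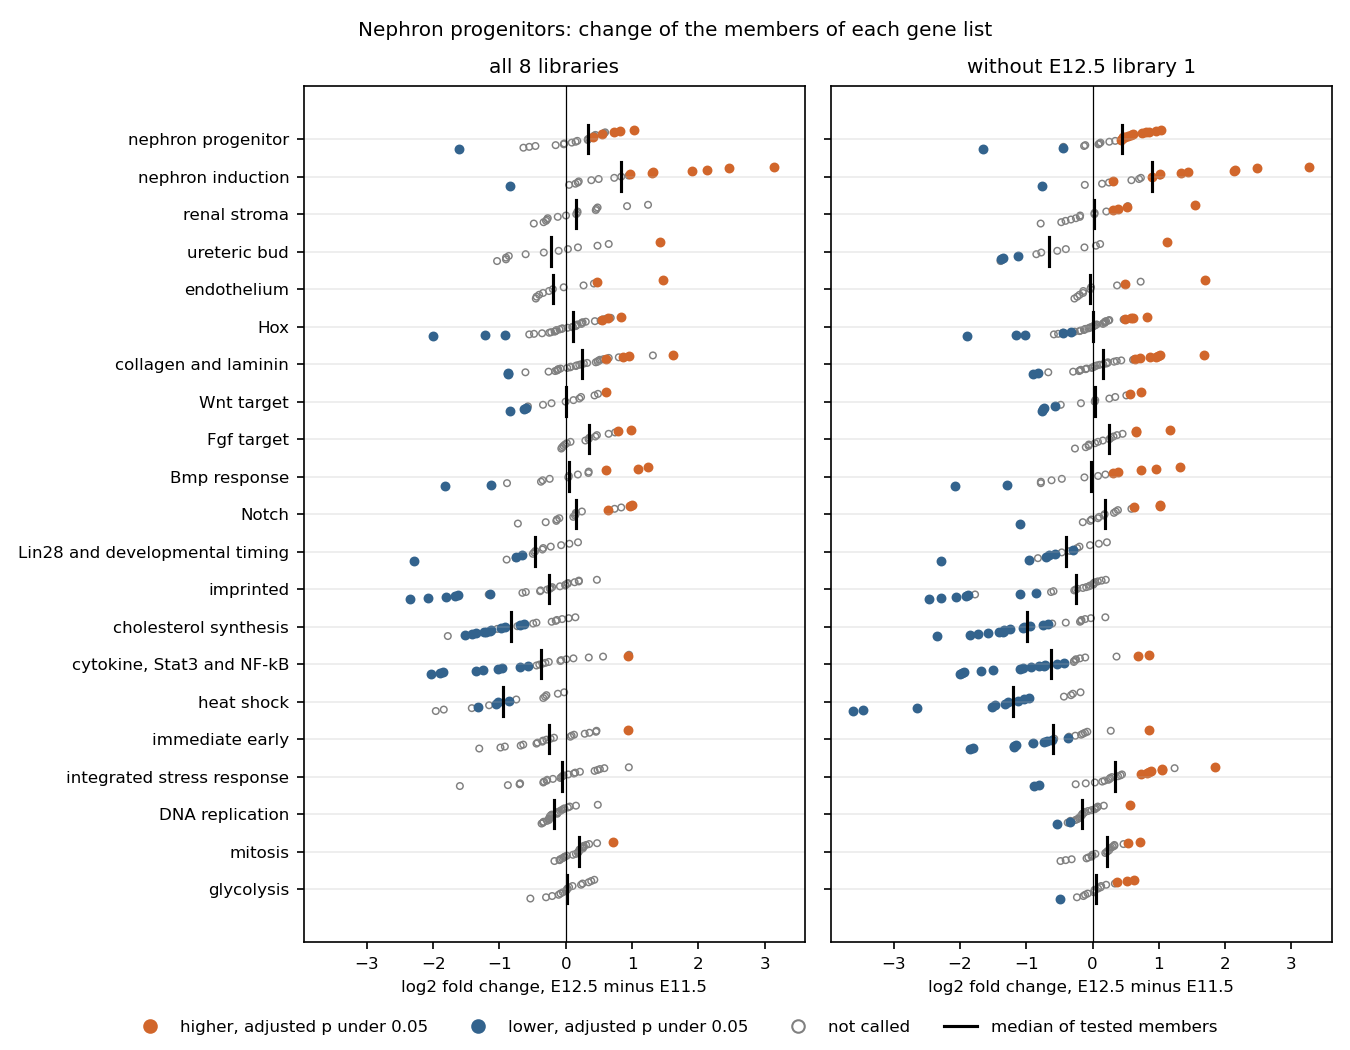
Log2 fold change (E12.5 minus E11.5, x axis) of every tested gene of each list (y axis), with all 8 libraries (left) and without library 1 of E12.5 (right); filled points passed the test, open points did not, and black bars are medians. Cholesterol synthesis genes lie mostly to the left of 0 and nephron induction genes mostly to the right, and more heat shock genes are filled without library 1.

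The change between the days was then set against the change of the SP cells. Of 14438 genes tested, 388 (2.69%) changed differently in NP and SP cells with limma on 16 libraries, 231 of them more upwards in NP cells and 157 more downwards. There were 524 without library 1, and 924 with all libraries and a block of day and replicate number. For *Emx2* the directions were opposite: SP cells had 9.54, 5.81, 7.71 and 2.18 at E11.5 and 0.271, 0.968, 0.287 and 0.229 at E12.5, and the difference of the log2 fold changes was 4.38 ± 0.42 (adjusted p = 6.8e-05). SP libraries also held ureteric bud RNA that fell (SD, n = 4). *Ret* went from 19.6 ± 9.6 to 4.37 ± 0.994 and *Epcam* from 14.95 ± 6.05 to 6.18 ± 1.89. *Krt8* went from 17.9 ± 8.97 to 0.800 ± 0.868 and *Cdh1* from 9.64 ± 5.79 to 1.17 ± 1.34. The part of bud cells in the SP change of *Emx2* was not tested. *Lhx1* differed by 3.62 ± 0.69, with SP libraries between 0.184 and 1.63 on both days.

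Some progenitor genes that were not called in NP cells with all 8 libraries, chosen after their values had been seen, fell in SP cells, with changes that differed. For *Sall1*, *Wt1*, *Pax2* and *Itga8* the difference did not pass the test. *Six2* was at 29.5, 21.1, 14.5 and 17.0 in E11.5 SP cells and at 4.39, 6.35, 1.15 and 1.19 in E12.5 SP cells, and the changes differed by 2.47 ± 0.48 (adjusted p = 0.010). *Eya1* and *Osr1* differed in the same direction by 2.76 and 2.11, and *Bmp7*, of the induction list, by 1.82. Without library 1 of E12.5, *Osr1* and *Bmp7* were called higher in NP cells with limma, as *Eya1* was. Their log2 fold changes were then 0.46 and 0.315 (adjusted p = 0.026 and 0.034). *Slc45a3* differed by 2.04 ± 0.20. *Upk3b*, a uroplakin of mesothelium and urothelium, was at most 0.0923 in NP libraries, too low to be tested there, and fell in SP libraries from between 2.50 and 4.74 to at most 0.0956, so that its difference rests on the change in SP cells.

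Among the genes that changed more downwards in NP cells, *Dlk1* fell in NP cells and rose in SP cells, where it went from 97.3, 70.1, 68.1 and 68.4 to 93.8, 125, 140 and 161 (difference -3.10 ± 0.33, adjusted p = 0.00012). *Dio3* and *Rian* of the same domain differed by -2.67 ± 0.38 and -2.02 ± 0.41. *Stat3* fell in both cell types, in SP cells from 621, 793, 779 and 767 to 467, 305, 376 and 293, and its fall was deeper in NP cells by 0.85 ± 0.20 on the log2 scale (adjusted p = 0.033). *Trpm5* and *Cxcl13* rose in SP cells, to between 10.4 and 14.7 and between 16.5 and 22.2. No NP library exceeded 0.400 and 0.171, under the minimum for a test in NP cells, so their differences rest on the change in SP cells. *Col8a2* fell in NP cells and rose in SP cells (difference -2.23 ± 0.23). For *Ccnd1*, *Pax8*, *Stard4*, *Bcl3*, *Icam1* and *Lin28a* the difference between the cell types did not pass the test, which does not show that they changed alike. In SP cells *Ccnd1* also rose (log2 fold change 0.72), and *Stard4* (-0.91), *Bcl3* (-1.27), *Icam1* (-2.35) and *Lin28a* (-2.20) also fell. *Cyp51* (-1.48), *Sc5d* (-1.08) and *Peg10* (-1.44) fell there too. These SP changes were called with limma (adjusted p at most 0.011), and that of *Pax8* was not (adjusted p = 0.93). With a block of day and replicate number, the differences of *Ccnd1*, *Pax8* and *Sall1* passed (adjusted p = 0.0097, 0.038 and 0.017). *Ccnd1* and *Pax8* rose more in NP cells (0.60 and 1.83), and *Sall1*, which rose in SP cells from 60.3 ± 13.3 to 198 ± 73.0 (SD, n = 4), had a difference of -1.03.

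**Figure D4:**
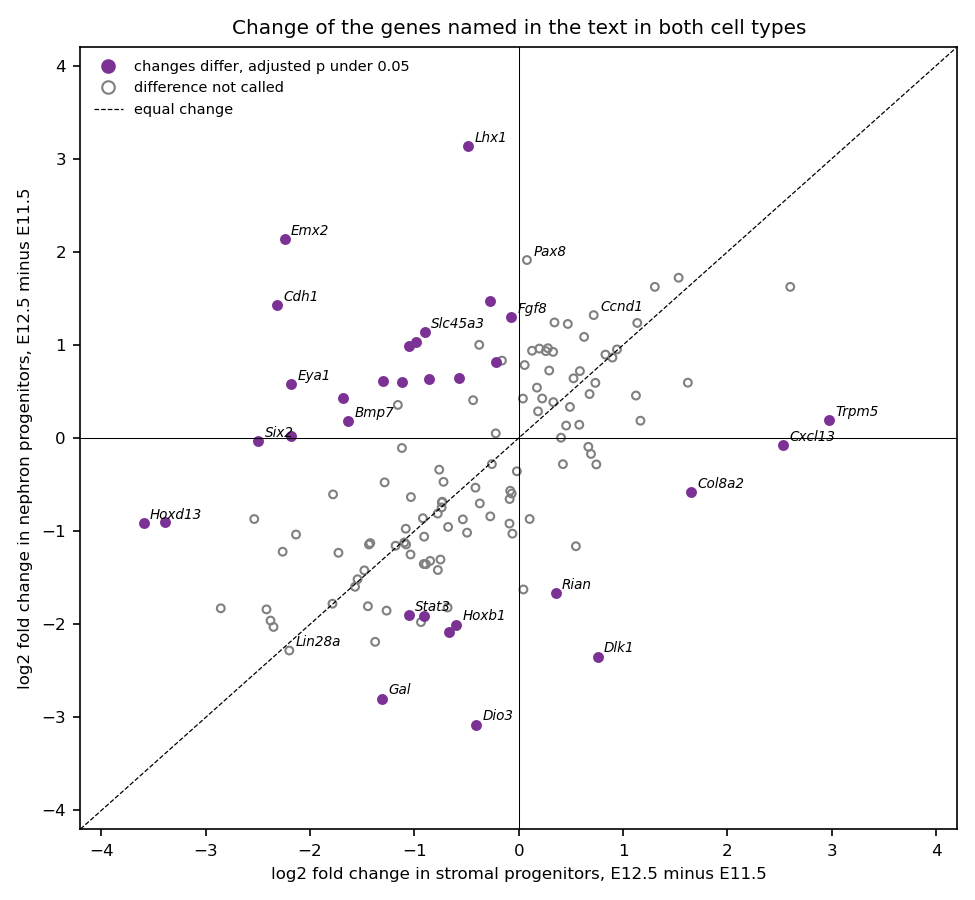
Log2 fold change between E11.5 and E12.5 of the genes named in the text, in SP cells (x axis) and in NP cells (y axis), each from 4 libraries a day; filled points are genes whose changes differ at an adjusted p under 0.05, and the dashed line marks equal change. *Lhx1* and *Emx2* lie at the upper left, *Dlk1* and *Dio3* below the line, and *Lin28a* close to it.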

How the data were processed

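The 4 NP libraries of E12.5 were compared with the 4 of E11.5. The authors prepared stranded mRNA libraries, trimmed reads with Cutadapt, aligned them with STAR 2.7.3a and normalised them with edgeR 3.28.1; the counting program, its use of strand and the annotation release are not given in the sources used here. The deposited signal values are CPM that the authors scaled by edgeR normalisation factors. The deposited log2 values and p-values belong to the comparisons of the authors and were not used. The genome is named as GRCh38, but the identifiers are mouse ones, and 22642 of 22761 (99.5%) matched GENCODE vM21 of GRCm38, from which positions were taken. Dividing by the value of 1 read gave whole reads for 100% of values (tolerance 0.01).

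Genes were kept if 4 or more of the 8 libraries reached a value of 1, and the fit used limma 3.58.1 (lmFit, eBayes with trend, R 4.3.3) on log2(value + 1), a scale that understates changes of low genes, with p-values adjusted after Benjamini and Hochberg over all genes tested and 0.05 as the threshold. The change in NP cells was compared with that in SP cells by a contrast over 16 libraries. The steps were tested on simulated data. edgeR 4.0.16 and DESeq2 1.42.0 were run on recovered reads as alternatives. Replicate numbers come from the titles, and whether NP and SP libraries of the same number came from 1 pool of embryos is not given in the sources used here. Motifs, given by their letters, were searched on both strands in RefSeq promoters (GRCm38.p6, 250 bases). Other steps used Python 3.11.15, numpy 2.4.6, pandas 2.3.3 and matplotlib 3.10.9.

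The lists, motifs and rules were chosen with earlier results of these data known. Genes named are in each direction the 8 of lowest p-value that were also called without library 1 of E12.5, up to 4 of each list by the same order, a fixed set of kidney markers and Lin28 genes, the 3 that move most without library 1, and 3 in each direction of the NP and SP difference; predicted genes and pseudogenes were counted instead, and some genes that the rule takes are not reported here. Other genes were named after their values had been seen, among them *Slc7a11*, *Tcf21*, *Meg3* and *Mki67*. A gene was called when its adjusted p was under the threshold.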

Additional observations from a re-analysis of the deposited data

Results flagged for a closer look

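In 39 of 266 groups of 4 libraries (14.7%), the highest or lowest library lay so far from the others that its gap to the nearest, over the whole range, was above the critical value of Dixon's test. Chance gives about 1 in 20, but many of these genes were named for their change without library 1 or after their values had been seen, so the share is a description. Library 1 of E12.5 was the distant one in 24 of them. It was high for *Pdgfra* (7.26), *Pdgfrb* (31.5), *Ret* (8.93), *Epcam* (16.9), *Krt18* (13.7), *Bcl3* (1.05), *Srxn1* (4.12), *Nfkb2* (74.9), *Relb* (58.1), *Eda2r* (1.82), *Hmgcs1* (260), *Insig1* (167), *Hspa1a* (194), *Hspa1b* (289), *Hspb1* (58.1), *Dnaja1* (271), *Hsp90aa1* (1130), *Bag3* (33.4), *Hsph1* (448), *Klf6* (109), *Egr1* (290) and *Fosb* (193 normalised CPM). It was low for *Eya1* (165) and *Wt1* (326).

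Library 1 of E11.5 was distant in 8 groups, high for *Lin28b* (37.6), *Mirg* (12.7), *Meg3* (18.3), *Smad9* (64.3) and *Hoxb7* (13.6) and low for *Myc* (186), *Cdk1* (53.8) and *Cxcl13* (0.039). Library 4 of E11.5 was high for *Nfkb2* (133), *Socs3* (19.6) and *Ankrd37* (2.43), and library 3 of E11.5 for *Rarb* (36.2). At E12.5, library 2 was low for *Cenpf* (12.6), library 3 was high for *Pfkfb4* (14) and library 4 for *Jag1* (116).

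For 31 of the genes named, the change between the days differed between NP and SP cells with limma at an adjusted p under 0.05. The NP change minus the SP change, on the log2 scale, was positive for the progenitor genes *Six2* (2.47), *Cited1* (2.01), *Eya1* (2.76), *Osr1* (2.11) and *Fgf9* (1.03), and for the induction genes *Lhx1* (3.62), *Fgf8* (1.37), *Emx2* (4.38) and *Bmp7* (1.82). It was also positive for *Slc45a3* (2.04), *Bmp4* (1.91), *Etv1* (2.04), *Nrarp* (1.21), *Hoxb8* (1.49), *Hoxd13* (2.68), *Col18a1* (1.72), *Cldn5* (1.75), *Cdh1* (3.74), *Krt8* (2.49) and *Upk3b* (2.20). It was negative for *Gal* (-1.49), *Stat3* (-0.85), *Dio3* (-2.67), *Spsb1* (-0.997), *Dlk1* (-3.10), *Rian* (-2.02), *Phlda2* (-1.41), *Hoxb1* (-1.40), *Trpm5* (-2.78), *Cxcl13* (-2.61) and *Col8a2* (-2.23). *Upk3b*, *Trpm5* and *Cxcl13* were too low in NP libraries to be tested there, and their differences rest on the change in SP cells. *Hoxd13* and *Krt8* did not rise in NP cells, with log2 fold changes of -0.92 and -0.90, the latter not called. Their differences were positive because they fell further in SP cells (-3.59 and -3.39). With a block of day and replicate number *Cldn5* did not pass (adjusted p = 0.055), and 19 other named genes passed, with adjusted p-values between 0.0046 and 0.048.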

How the results depend on the processing

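With 1 library left out at a time, between 61 and 1218 genes were higher and between 125 and 1071 lower. The counts were 1218 and 1071 without library 1 of E12.5 and 566 and 729 without library 2, against 101 and 173 without library 3, 80 and 155 without library 4, and 155 and 270, 61 and 131, 63 and 125, and 157 and 266 without libraries 1 to 4 of E11.5. A minimum of 5 gave 181 higher and 288 lower, DESeq2 910 and 1002, a fit of all 36 libraries 780 and 748, and library weights 3035 and 2710. Testing for a size above 1 on the log2 scale (limma's treat) gave 0 and 3, with 70 genes at an unadjusted p under 0.05. Upper-quartile scaling gave 460 and 411, so that 52.8% of calls were higher in place of 43.3%, edgeR gave 373 and 488, and quantile normalisation 309 and 439. Chosen after seeing the data, edgeR without library 1 gave 1094 and 1225, and libraries 3 and 4 of E12.5 alone gave 1708 and 1515.

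The replicate number as a block gave 309 higher and 404 lower. Same-numbered E11.5 and E12.5 libraries had correlated deviations of 0.373, 0.356, -0.336 and 0.225, so the numbers were not taken to pair them, although 3 of 4 E11.5 libraries correlated best with their own number. For the difference between NP and SP changes, leaving out a NP library gave 243 to 524 genes, the lowest without library 2 of E11.5, and a block of day and replicate number gave 924. NP and SP libraries of a day correlated best with their own number in 6 of 8 cases, with correlations of 0.271 to 0.689 in 7 pairs and -0.333 in 1.

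Of 88 called genes named, 28 were called under every alternative that tested them other than treat, between 27 and 58 lost the call without 1 library of E11.5, 10 with the replicate block, and none changed direction. With edgeR, *Lhx1*, *Jag1*, *Fgf9*, *Relb*, *Hmgcs1*, *Bag3*, *Mirg* and *Lama4* were no longer called, with adjusted p-values between 0.0521 and 0.0855. Among those not called, 6 turned direction without library 1 of E12.5 and were called in neither fit: *Six2* (-0.03 to 0.12), *Pdgfra* (0.00 to -0.41), *Egr1* (0.46 to -0.11), *Fosb* (0.29 to -0.58), *Trib3* (-0.87 to 0.18) and *Mki67* (0.19 to -0.41). *Pdgfra* (0.00 with all libraries) became -0.45 with library weights and -0.53 with libraries 3 and 4 of E12.5 alone. *Cenpe* (-0.17) ranged from -0.57 to 0.84 with 1 library left out, highest without library 2 of E12.5, and was 0.83 with weights and 0.88 with libraries 3 and 4 alone. *Cenpf* (-0.09) ranged from -0.36 to 0.64, and was 0.69 and 0.68. The causes of these shifts were not tested. Changes of genes near 3 reads are limited by depth.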

Other observations

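Beyond the comparison of the days, the E11.5 libraries differed among themselves in the same genes. Library 1 was the lowest and library 4 the highest for *Lhx1* (0.117 and 10.9), *Pax8* (13.4 and 60.7), *Fgf8* (5.10 and 11.4), *Jag1* (29.8 and 69.7), *Cited1* (18.4 and 42.6) and *Lama4* (14.8 and 75.6 normalised CPM). For *Lin28a* (25.3 and 3.86), *Hoxb1* (39.8 and 15.1) and *Grem1* (36.8 and 11.8) library 1 was the highest and library 4 the lowest. These genes were picked after their values had been seen, and the order was not tested.

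Several lists held few or no calls. None of 16 glycolysis genes, of 7 genes of the mitochondrial genome or of 5 genes of the sex chromosomes was called with all libraries. Without library 1 of E12.5, 3 glycolysis genes rose and 1 fell, against 9.08% and 7.98% of all genes. None of 3 erythroid genes was called with all libraries, while 2 fell without library 2 of E12.5, against 5.43% of all genes, and the summed level of the list ranged from 14.9 to 77.5 at E11.5 and from 4.19 to 74.6 at E12.5. Of 12 neural crest and neuron genes listed, 4 were tested. None of these was called, and 1 fell without library 1 of E12.5, *Tubb3*, named after its values had been seen. The mean log2 level of the 12 ranged from 1.53 to 2.25 at E11.5 and from 1.14 to 1.35 at E12.5. Their summed level overlapped, at 76.3 to 89.2 and 59.4 to 117.7. In the muscle list 1 of 6 fell, or 2 without library 1, against 3.59% and 7.98% of all genes. With all libraries it was *Des*, from 282 ± 20.7 to 203 ± 9.28 (SD, n = 4). Heat shock promoters held the heat shock element (GAA, NN, TTC, NN, GAA) in 2 of 11 genes with a window (*Hspd1* and *Hspe1*), against 0.514% of all genes.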
